A study of Mus musculus with 6 samples.

Results

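The response of Jmjd6-/- thymic stroma to RANKL, the ligand of the receptor RANK, was examined in fetal thymus organ culture (FTOC). Members were rows of the expression table that lie off chromosomes X and Y and have a mean of at least 0.1 FPKM (fragments per kilobase of transcript, scaled to the mapped fragments of each library) over the 3 Jmjd6-/- libraries. Of 22513 rows, 14924 were members, 6534 lay below the minimum and 1055 lay on X or Y. The rule did not use the direction of any change. RANKL libraries outnumber the unstimulated one in its mean, however, so a scarce gene passes more readily when it rises than when it falls. Just inside the minimum were Cntn6, Spn and 4933424G06Rik, at mean values of 0.1001, 0.1005 and 0.1005 FPKM. Just outside were 4732471J01Rik, 2010009K17Rik and Ahsg, at 0.0998, 0.0999 and 0.09997 FPKM.

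All 6 libraries came from fetal thymi of C57BL/6 mice whose haematopoietic cells had been depleted with 2′-deoxyguanosine (2-DG), so that mainly stroma was left. The Jmjd6-/- lobes, which lack Jmjd6 in every cell and not in the epithelium alone, gave 1 unstimulated library and 2 libraries after 4 days with RANKL. WT lobes, without the deletion, gave the same numbers, and they were treated with 2-DG in the same way. The RANKL pairs were described to GEO as technical duplicates and in the study as samples. The p-values below therefore measure the spread between these libraries only. For the WT pair that spread may be technical. The Jmjd6-/- pair differed in sex-linked transcripts, given below.

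RANK signals through TRAF adaptors to the classical and the alternative NF-κB pathways, and in the thymus it drives the maturation of medullary thymic epithelial cells (mTECs). Mature mTECs carry Aire, a nuclear regulator through which genes of peripheral tissues are transcribed in the thymus and shown to developing T cells. Jmjd6 is a nuclear oxygenase that hydroxylates lysines of splicing factors such as U2af2. Jmjd6 itself stood at 1.32 FPKM in the unstimulated Jmjd6-/- library and at 1.96 and 1.78 FPKM in the RANKL libraries. The WT libraries held 26.3 FPKM without RANKL and 25.9 and 32.5 FPKM with it, so the genotype labels matched the gene in all 6 libraries.

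Summed FPKM ranged from 501418 to 564985 per library. The values of scarce genes change in steps of 1 fragment, and from these the depth came to between 15.5 and 30.5 (in units of 1e+06 fragments), while the unstimulated Jmjd6-/- library was the shallowest. The RANKL pair of Jmjd6-/- stroma differed by a median of 0.077 on the log2 scale over 12166 members above 1 FPKM, against 0.273 for the WT pair. Transcripts of chromosome Y separated the Jmjd6-/- libraries. Eif2s3y was at 0.0651 FPKM without RANKL and at 36.3 and 7.71 FPKM with it, while Xist was present in all 3 at 81.5, 28.2 and 65.9 FPKM. The RANKL pair thus differed in opposite directions for these genes, so its libraries did not hold the same mix of male and female lobes. The sex of the lobes and RANKL cannot be told apart in the Jmjd6-/- comparison, whose unstimulated side is 1 library. The thymic epithelial markers Foxn1, Epcam and Psmb11 were at 94.0, 156 and 294 FPKM in unstimulated Jmjd6-/- stroma. Of 17 T cell markers 11 did not reach the minimum, with Cd3e and Cd3d at 0 without RANKL. Of the other 6, 3 lay above and 3 below the unstimulated value in both RANKL libraries, and none passed the test used below. Without and with RANKL, Thy1 was at 3.19, 5.77 and 5.37 FPKM and Lck at 0.390, 0.728 and 0.797 FPKM. Cd4 was at 1.28, 0.752 and 0.715 FPKM and Ptprc at 6.74, 2.89 and 3.56 FPKM. Macrophage transcripts remained, with Lyz2 at 289.8, 285 and 323 FPKM.

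Promoter sequences of 6 genes that rose with RANKL are printed because each held a κB-type motif, the class of sequence that NF-κB dimers bind. They stand for the feedback inhibitors Nfkbia, Tnip1 and Tnip3, the receptor Tnfrsf9 and the chemokines Ccl20 and Cxcl10. Each window runs 5′ to 3′ from 250 bases before to 50 bases after a start of the gene (RefSeq, GRCm38.p6). Genes can have more than 1 start, and only windows that held a motif are printed. The starts used for Tnfrsf9 and Cxcl10 lie inside the loci of their rows, chr4:150920155-150946102 and chr5:92331841-92414627. Capitals mark the matches to GGGNN followed directly by TTTCC or by TTCCC, on either strand. Matches to these motifs overlap in Ccl20 and Tnfrsf9.
Nfkbia (chr12:55492598-55492897, minus strand): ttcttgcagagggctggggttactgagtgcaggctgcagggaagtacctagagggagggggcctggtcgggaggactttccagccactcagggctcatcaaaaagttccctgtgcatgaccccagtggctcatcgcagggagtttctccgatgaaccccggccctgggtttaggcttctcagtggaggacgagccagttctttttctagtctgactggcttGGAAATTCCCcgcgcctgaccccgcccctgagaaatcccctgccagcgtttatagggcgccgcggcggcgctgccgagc
Tnip1 (chr11:54962891-54963190, minus strand): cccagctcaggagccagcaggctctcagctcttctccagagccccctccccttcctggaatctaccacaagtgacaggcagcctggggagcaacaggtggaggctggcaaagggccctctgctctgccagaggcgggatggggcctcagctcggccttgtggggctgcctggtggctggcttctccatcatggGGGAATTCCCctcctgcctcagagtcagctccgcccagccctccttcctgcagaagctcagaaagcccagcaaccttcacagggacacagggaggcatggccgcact
Tnip3 (chr6:65590148-65590447, plus strand): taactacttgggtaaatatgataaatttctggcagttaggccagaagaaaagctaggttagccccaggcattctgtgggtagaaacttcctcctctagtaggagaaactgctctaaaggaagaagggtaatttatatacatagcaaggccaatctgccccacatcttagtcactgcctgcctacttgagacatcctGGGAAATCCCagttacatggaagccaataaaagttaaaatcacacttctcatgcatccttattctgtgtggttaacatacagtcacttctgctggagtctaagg
Tnfrsf9 (chr4:150927749-150928048, plus strand): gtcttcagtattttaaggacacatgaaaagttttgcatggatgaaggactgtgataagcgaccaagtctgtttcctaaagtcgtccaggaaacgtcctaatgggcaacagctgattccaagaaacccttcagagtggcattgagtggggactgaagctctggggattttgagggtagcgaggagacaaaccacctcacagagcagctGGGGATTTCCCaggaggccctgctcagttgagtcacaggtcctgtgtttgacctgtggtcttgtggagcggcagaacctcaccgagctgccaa
Ccl20 (chr1:83116516-83116815, plus strand): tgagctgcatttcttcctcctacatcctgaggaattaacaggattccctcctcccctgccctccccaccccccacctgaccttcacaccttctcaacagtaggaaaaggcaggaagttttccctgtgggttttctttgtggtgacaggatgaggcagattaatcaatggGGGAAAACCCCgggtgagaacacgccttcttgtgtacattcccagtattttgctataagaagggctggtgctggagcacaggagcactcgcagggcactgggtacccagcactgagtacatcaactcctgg
Cxcl10 (chr5:92348840-92349139, minus strand): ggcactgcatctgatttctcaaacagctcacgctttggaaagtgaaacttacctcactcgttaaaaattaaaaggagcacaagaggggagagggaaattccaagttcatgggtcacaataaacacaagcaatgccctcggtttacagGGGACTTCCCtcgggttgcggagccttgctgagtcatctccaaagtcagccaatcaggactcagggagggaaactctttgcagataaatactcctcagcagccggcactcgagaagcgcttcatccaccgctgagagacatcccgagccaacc

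A window was found for 387 of the risen rows' genes, and 39 of them (10.1%) held a motif. Among all members with a window the share was 519 of 10841 (4.79%), and among all genes with a RefSeq window it was 1007 of 27025 (3.73%). A gene counted when any of its windows held a motif. By window the shares were 41 of 482 (8.51%) for risen genes and 556 of 13774 (4.04%) for members. None of the 28 fallen genes with a window held one. In the printed windows the motif lay between 29 bases (Nfkbia) and 103 bases (Cxcl10) before the start. By list, 9 of 16 NF-κB subunit and feedback genes, 6 of 15 chemokine genes, 4 of 13 RANK family genes, 2 of 20 interferon response genes and 2 of 18 mTEC maturation genes held it. A match is a description of these letters, and binding was not measured.

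The comparison of RANKL with no stimulation asked which genes respond in stroma without Jmjd6. Values were compared as log2(FPKM + 0.1) with limma, and a gene was called when its adjusted p was under 0.05 and both RANKL libraries lay at least 2-fold away from the unstimulated one in the same direction. Of 14924 members, 541 rose (3.63%) and 45 fell (0.302%), together 586 (3.93%). By the adjusted p alone 572 were higher (3.83%) and 55 lower (0.369%), and by the 2-fold rule alone 1076 were higher (7.21%) and 222 lower (1.49%). The median change was 2.47 among the risen and -1.94 among the fallen rows on the log2 scale, against -0.02 over all members. The risen rows took 0.467% of summed FPKM without RANKL and 2.04% and 1.81% with it. The fallen rows took 0.174% without RANKL and 0.0595% and 0.0589% with it. Of the rises, 342 exceeded 4-fold and 77 exceeded 16-fold in both libraries.

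**Figure D1:**
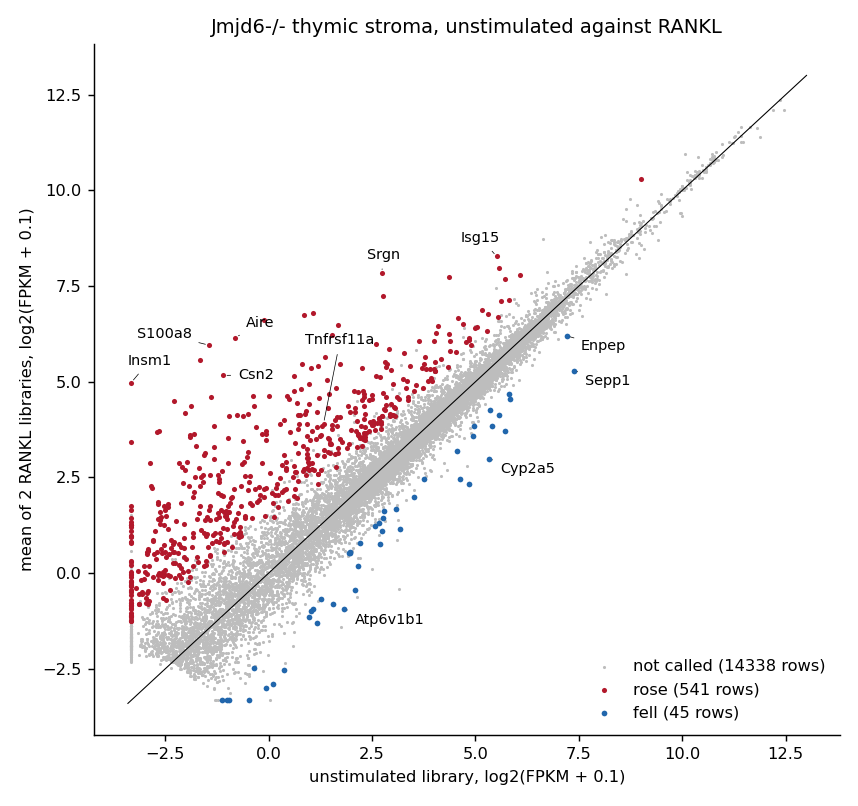
Each point is 1 of 14924 members in Jmjd6-/- stroma, with log2(FPKM + 0.1) of the unstimulated library on the x axis and the mean of the 2 RANKL libraries on the y axis. The diagonal marks equal values. The 541 risen rows (red) lie mostly at low unstimulated levels, and the 45 fallen rows (blue) are fewer and reach higher unstimulated levels.

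Most rises began from a low level. In the unstimulated library 302 of the 541 risen rows (55.8%) were under 1 FPKM, against 21.0% of all members, and 52 were at 0. Rows at 0 there met the minimum through the RANKL libraries alone. The median risen row went from 0.599 FPKM to 5.92 FPKM. After RANKL 16 of the risen rows exceeded 100 FPKM. Among them were Ifitm3, an antiviral membrane protein, at 514 FPKM without and 1295 and 1215 FPKM with RANKL, and Srgn, the granule proteoglycan serglycin, at 6.55, 244 and 214 FPKM. Both were chosen after their values were seen. The counts rest on how the spread was estimated. Without Jmjd6-/- RANKL replicate 1 the counts were 186 rises and 2 falls, without replicate 2 they were 258 and 7, and without either WT RANKL library they were 915 or 916 rises and 155 or 158 falls.

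Of 15 tested genes of the RANK family and its adaptors, 5 rose, as 3.63% of all members did, and none fell. The list's median change was 0.51 on the log2 scale. Tnfrsf11a, which encodes RANK, was at 2.41 FPKM without RANKL and at 16.1 and 13.7 FPKM with it, a log2 change of 2.58 ± 0.21 (SE; adjusted p = 0.00504). Tnfrsf11b encodes osteoprotegerin, the soluble decoy receptor that binds RANKL. It went from 0.148 FPKM to 19.1 and 17.2 FPKM, a log2 change of 6.198 ± 0.42 (adjusted p = 0.00370). Both RANKL libraries stood far above the unstimulated one for each gene.

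Cd40, a receptor that acts beside RANK in mTEC development, was at 9.46, 38.1 and 29.9 FPKM, a log2 change of 1.82 ± 0.19 (adjusted p = 0.0110). Tnfrsf9, the co-stimulatory receptor 4-1BB, was at 0 without RANKL and at 2.15 and 1.52 FPKM with it. Against the 3 fragments that a value of 0 allows, it was at least 8.09-fold higher. The adaptor Traf1, itself a known NF-κB target, was at 0.599, 8.61 and 7.72 FPKM. The other adaptors did not pass. Traf2 was at 16.3, 24.1 and 22.4 FPKM, and Traf6, which carries the signal from RANK to the classical pathway, was at 15.0, 22.4 and 18.5 FPKM (adjusted p = 0.406). Ltbr, the lymphotoxin β receptor, lay at 92.6, 95.3 and 93.1 FPKM. The ligand gene Tnfsf11 was low in all 3, at 0.0599, 0.333 and 0.640 FPKM.

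Of 20 tested NF-κB subunit and feedback genes 4 rose, as 3.63% of all members did, none fell, and the list median was 0.28. The 4 encode inhibitors, while other inhibitors such as Tnfaip3, at 8.10, 17.0 and 14.3 FPKM, did not pass. Nfkbia, which encodes IκBα, was at 56.0 FPKM without and at 151 and 129 FPKM with RANKL, a log2 change of 1.32 ± 0.15 (adjusted p = 0.0135). Nfkbie, another IκB gene, was at 9.99, 35.4 and 29.2 FPKM. Tnip1, whose product works with the ubiquitin-editing enzyme A20, was at 20.7, 58.4 and 53.0 FPKM, and its relative Tnip3 was at 0.0914, 0.609 and 0.676 FPKM. The windows of Nfkbia, Tnip1 and Tnip3 printed above each held the motif.

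Nfkb2, the subunit of the alternative pathway, was at 35.6, 73.0 and 68.1 FPKM (adjusted p = 0.0305) and missed the call because 1 library was under 2-fold. Birc3, an inhibitor of that pathway's kinase, missed it the same way at 20.5, 45.4 and 39.3 FPKM. Nfkb1 was at 73.3, 77.5 and 76.6 FPKM and Rela at 24.2, 27.2 and 27.4 FPKM, so their RANKL libraries lay close to the unstimulated one. Map3k14, the NF-κB-inducing kinase, was at 32.9, 30.9 and 29.0 FPKM (adjusted p = 0.838).

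Of 21 tested genes of mTEC maturation 8 rose in the absence of Jmjd6, as 3.63% of all members did. None fell, and the median change was 1.59. Aire was at 0.473 FPKM without RANKL and at 75.1 and 67.1 FPKM with it, a log2 change of 6.95 ± 0.16 (adjusted p = 0.000540). In WT stroma Aire went from 0.142 to 78.0 and 79.7 FPKM. The 2 RANKL values of Jmjd6-/- stroma lay below both WT values by a small amount. The table measures the Aire transcript over its locus and says nothing of intron retention or protein. Fezf2, a second regulator of peripheral tissue genes in mTECs, was at 1.20, 16.3 and 15.2 FPKM, a log2 change of 3.60 ± 0.21 (adjusted p = 0.00292). Cd80, the co-stimulatory ligand that marks mature mTECs, was at 1.11, 15.3 and 14.3 FPKM, a log2 change of 3.63 ± 0.20 (adjusted p = 0.00278). Icosl, the ligand of ICOS, was at 1.44, 39.9 and 31.5 FPKM.

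Ccl22, also of this list, had a log2 change of 4.17 and is given with the chemokines. The members given next moved less than Aire, Fezf2, Cd80 and Icosl. Spib, an Ets factor induced by RANK, was at 7.47, 58.3 and 57.2 FPKM. Krt14, a keratin of medullary and basal cells, was at 7.67, 37.2 and 41.8 FPKM, while its partner Krt5 was at 1977, 1887 and 1879 FPKM and did not pass. Cd86 was lower in both RANKL libraries, at 5.83, 3.53 and 3.01 FPKM (adjusted p = 0.230). Ccl19, a chemokine of the medulla, was at 1.89, 7.33 and 4.73 FPKM (adjusted p = 0.0895). In WT stroma Ccl19 was at 2.94, 32.2 and 47.3 FPKM.

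Of 12 MHC class II and 15 class I and immunoproteasome genes, 3 rose in all, where 3.63% of all members rose. All 12 MHC class II genes tested lay above the unstimulated value in both RANKL libraries, as 41.1% of all members did, and 1 was called. This was H2-DMb2, a subunit of the peptide-loading factor H2-DM, at 4.83, 26.2 and 22.2 FPKM, a log2 change of 2.29 ± 0.17 (adjusted p = 0.00388). The class II chain H2-Aa was at 1319.8, 1938 and 1784 FPKM and the invariant chain Cd74 at 2411, 2749 and 2629 FPKM. Of 15 class I and immunoproteasome genes 2 rose. Psmb8, an immunoproteasome subunit, was at 5.30, 25.1 and 20.7 FPKM, and Nlrc5, the transactivator of class I genes, was at 1.25, 4.99 and 4.10 FPKM. B2m was at 1074, 2118 and 1861 FPKM and missed the threshold (adjusted p = 0.111).

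The largest rise was that of Insm1. Insm1, a zinc-finger factor of neuroendocrine cells, was at 0 without RANKL and at 31.7 and 31.0 FPKM with it, so that it was at least 478-fold higher. Nkx2-6, a homeobox gene of the pharynx and heart, was at 0, 10.4 and 10.7 FPKM, at least 53.7-fold higher. Cdx1, a homeobox gene of the intestine, was at 0.0595, 13.99 and 12.2 FPKM, and Cyp26a1, which degrades retinoic acid, was at 0.0537, 15.2 and 10.7 FPKM. S100a8, a calcium-binding protein of neutrophils and keratinocytes, was at 0.268, 58.5 and 65.5 FPKM. In each of these the RANKL pair lay close together and far above the single unstimulated value.

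Antimicrobial proteins were among the 20 largest rises. Defb6, a β-defensin, was at 1.99, 113 and 108 FPKM, and the peptidoglycan recognition protein Pglyrp2 was at 0.171, 20.3 and 20.9 FPKM. The eosinophil-associated ribonuclease rows were higher with RANKL in Jmjd6-/- than in WT stroma. The row of Ear2 and Ear3 was at 0.218, 51.5 and 43.2 FPKM in Jmjd6-/- stroma and at 0.463, 2.36 and 12.3 FPKM in WT, and Ear1 was at 0.106, 24.3 and 21.0 FPKM against 0.170, 1.04 and 4.20 FPKM. These genes are near-identical copies that share reads, the WT libraries disagreed with each other, and the difference between genotypes did not pass (limma, adjusted p = 0.999 for both). Sprr2b, a cornified envelope protein of another family of near copies, was at 0.284, 26.0 and 22.8 FPKM. Tcf7, a transcription factor best known in T cells, was at 0.168, 13.5 and 10.2 FPKM.

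**Figure D2:**
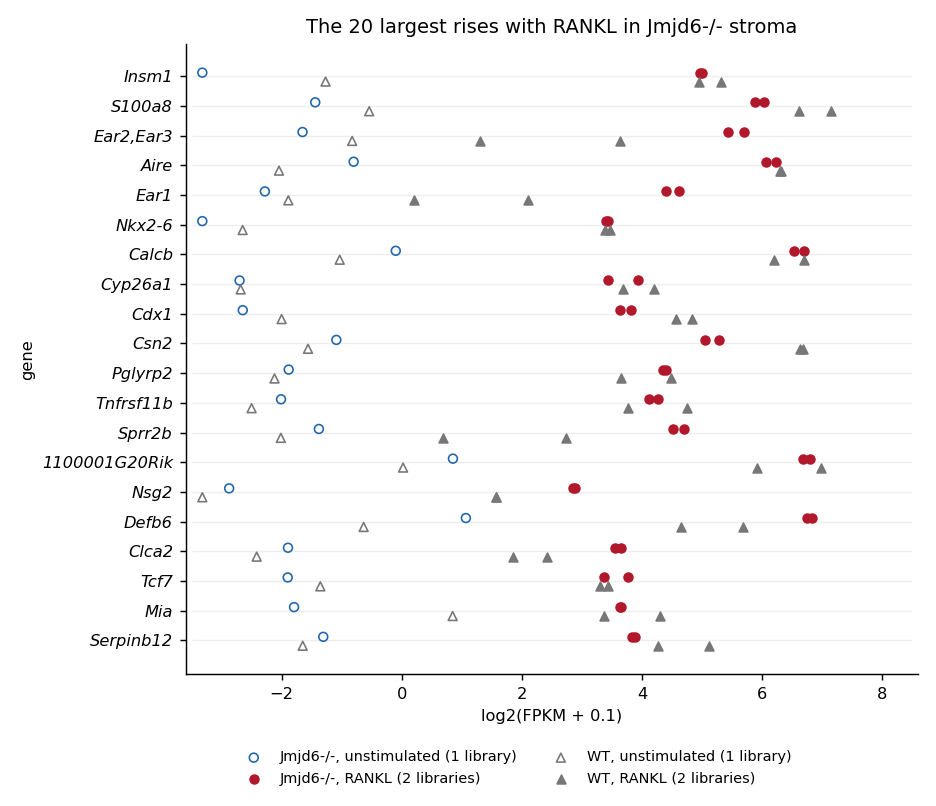
The 20 largest rises among called rows with a mean of at least 1 FPKM, 1 row per gene, with log2(FPKM + 0.1) on the x axis and 1 symbol per library (circles, Jmjd6-/-; triangles, WT; open, unstimulated; filled, RANKL). Filled red circles lie close together and to the right of the open blue circle in all 20 rows. For Ear2,Ear3, Ear1, Sprr2b, Nsg2, Defb6 and Clca2 both filled triangles lie to the left of the red circles.

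Of 20 neuroendocrine genes 13 passed the minimum, and 7 of these rose, as 3.63% of all members did. None fell, and the median change was 2.34. The calcitonin gene-related peptides rose together. Calcb was at 0.832, 103 and 92.1 FPKM, a log2 change of 6.71 ± 0.24 (adjusted p = 0.00109), and Calca was at 1.86, 31.6 and 29.6 FPKM. The neuropeptide gene Npy was at 0, 2.104 and 2.47 FPKM, at least 4.92-fold higher. The granule protein Scg2 and the convertase Pcsk2 were also among the risen genes. Chga, chromogranin A, was at 13.0007, 13.8 and 18.5 FPKM and did not pass. The list contains Insm1, so part of its count is the gene described above.

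The hormone genes Sst and Gal were not called in Jmjd6-/- stroma, and they were chosen after their values were seen. Sst, somatostatin, was at 0.191, 0.560 and 0.153 FPKM, and in WT stroma at 0, 2.86 and 6.85 FPKM. Gal, galanin, was at 0.552, 1.13 and 0.554 FPKM against 0.213, 3.87 and 9.46 FPKM. The unadjusted p of the difference in response was 0.00467 for Sst and 0.00735 for Gal (limma), and neither passed after adjustment. About 3 fragments correspond to 0.339 FPKM for Sst and 0.371 FPKM for Gal in the unstimulated Jmjd6-/- library.

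Csn2, β-casein, a milk protein made under Aire in mTECs, was at 0.369, 38.7 and 33.1 FPKM, a log2 change of 6.26 ± 0.17 (adjusted p = 0.000540). In WT stroma it reached 102 and 99.3 FPKM from 0.239 FPKM. The other 7 milk protein genes lay below the minimum. Of 26 gut and exocrine secretory genes 17 were tested and 2 rose, where 3.63% of all members rose. The list's median was 0.74 in Jmjd6-/- and 2.51 in WT stroma. Reg3g, an intestinal antibacterial lectin, was at 3.02, 28.2 and 29.1 FPKM in Jmjd6-/- and at 5.89, 99.0 and 173 FPKM in WT. Muc1, a membrane mucin, was at 0.101, 1.36 and 1.38 FPKM. In both WT RANKL libraries 11 of the 17 were at least 2-fold higher, as 8.23% of all members were. The difference between genotypes had an unadjusted p under 0.05 for 8 of the 17 and for 531 of all 14924 members (3.56%). None of the 8 passed after adjustment over all 14924 members.

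Of 21 liver plasma protein genes 9 were tested, 1 rose and 1 fell, where 3.63% of all members rose and 0.302% fell. The list's median was -0.22 in Jmjd6-/- and 1.14 in WT stroma. Apoa1, the main protein of high-density lipoprotein, was at 0, 1.01 and 0.761 FPKM in Jmjd6-/- and at 0.132, 6.35 and 8.94 FPKM in WT. Amy1, the amylase gene placed in this list, fell from 6.76 FPKM to 3.11 and 2.85 FPKM. Of 20 muscle genes 5 were tested and none passed in either direction. The lists were chosen with results of these libraries known, so their counts are no independent evidence of direction.

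Chemokine genes rose with RANKL in 7 of 21 tested cases, where 3.63% of all members rose. None fell, and the median was 1.45. Cxcl10, an interferon-induced ligand of CXCR3, was at 47.1 FPKM without and at 303 and 204 FPKM with RANKL, a log2 change of 2.40 ± 0.30 (adjusted p = 0.0181). Its companion Cxcl9 was at 0.0653, 3.21 and 2.17 FPKM. Ccl20, the CCR6 ligand, was at 0, 1.93 and 1.41 FPKM, at least 5.37-fold higher. Ccl22, a CCR4 ligand, was at 0.0759, 2.46 and 3.80 FPKM. The adjacent genes Ccl9 and Ccl6 were at 3.02, 18.2 and 15.8 FPKM and at 1.81, 7.95 and 7.87 FPKM. Ccl25 and Cxcl12, chemokines of the cortex, were lower in both RANKL libraries but did not pass, with Cxcl12 at 985, 689 and 672 FPKM (adjusted p = 0.185). Ccl9, Ccl6, Ccl20, Spib, Tnfrsf11b and Pglyrp1 also made up the 6 risen genes among 14 tested markers of microfold cells, an antigen-sampling epithelial type that needs RANK in the gut. Gp2, its surface receptor, was at 2.1035, 2.85 and 2.13 FPKM and did not pass.

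Interferon response genes gave the highest count of any list, and theirs was also the list with the most tested members. Of 26 tested genes 16 rose, as 3.63% of all members did, and none fell. All 26 lay above the unstimulated value in both RANKL libraries, as 41.1% of all members did. Their median was 1.46. Isg15, a ubiquitin-like protein, was at 45.5, 320.1 and 299 FPKM, a log2 change of 2.76 ± 0.22 (adjusted p = 0.00504). Zbp1, a sensor of nucleic acids, was at 1.53, 21.7 and 14.1 FPKM, and Irf7, which amplifies type I interferon, was at 6.41, 40.1 and 30.3 FPKM.

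The unstimulated levels of these genes differed between the genotypes. Summed over the list, the unstimulated libraries held 663 FPKM in Jmjd6-/- and 1489 FPKM in WT stroma. After RANKL the sums were 1899 and 1599.9 FPKM against 2932 and 3617 FPKM. Isg15 was at 259.7 FPKM in the unstimulated WT library and at 575 and 790.2 FPKM after RANKL, and Ifi27l2a, an interferon-induced gene chosen after its values were seen, was at 174 FPKM there against 6.75 FPKM in Jmjd6-/- stroma. The Jmjd6-/- values lay below the WT values of the same condition in each of these sums. With 1 unstimulated library per genotype, the spread of that starting level was not measured.

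Of 25 tested cell cycle genes 24 lay above the unstimulated value in both RANKL libraries, as 41.1% of all members did. Of the 25, 4 rose (3.63% of all members rose), none fell, and the median was 1.01. The called genes were Cdc20, Plk1, Rrm2 and Birc5, which act in mitosis and nucleotide supply. Birc5, survivin, was at 10.2, 21.3 and 25.0 FPKM, a log2 change of 1.17 ± 0.16 (adjusted p = 0.0249). The proliferation marker Mki67 was at 7.09, 13.3 and 14.6 FPKM (adjusted p = 0.346). In WT stroma the list's median was 0.95. In bulk libraries more dividing cells and more RNA per dividing cell cannot be told apart, and the same holds for fewer or more cells of any type below.

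Of 23 tested cornified envelope genes 4 rose, as 3.63% of all members did, none fell, and the median was 0.68. The risen genes were the small proline-rich proteins Sprr2b, Sprr2h, Sprr2a1 and Sprr1b, the last at 3.23, 14.4 and 19.6 FPKM. Sprr1a missed the threshold at 99.5, 384 and 460.4 FPKM (adjusted p = 0.0512). The sum over the list was 1040.3 FPKM in unstimulated Jmjd6-/- and 493 FPKM in unstimulated WT stroma. None of 18 tested tuft cell markers passed, and their median was 0.13. Gng13, a G protein subunit of taste and tuft cells, was at 5.50, 9.21 and 9.05 FPKM, and in WT stroma at 1.30, 10.7 and 10.7 FPKM.

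**Figure D3:**
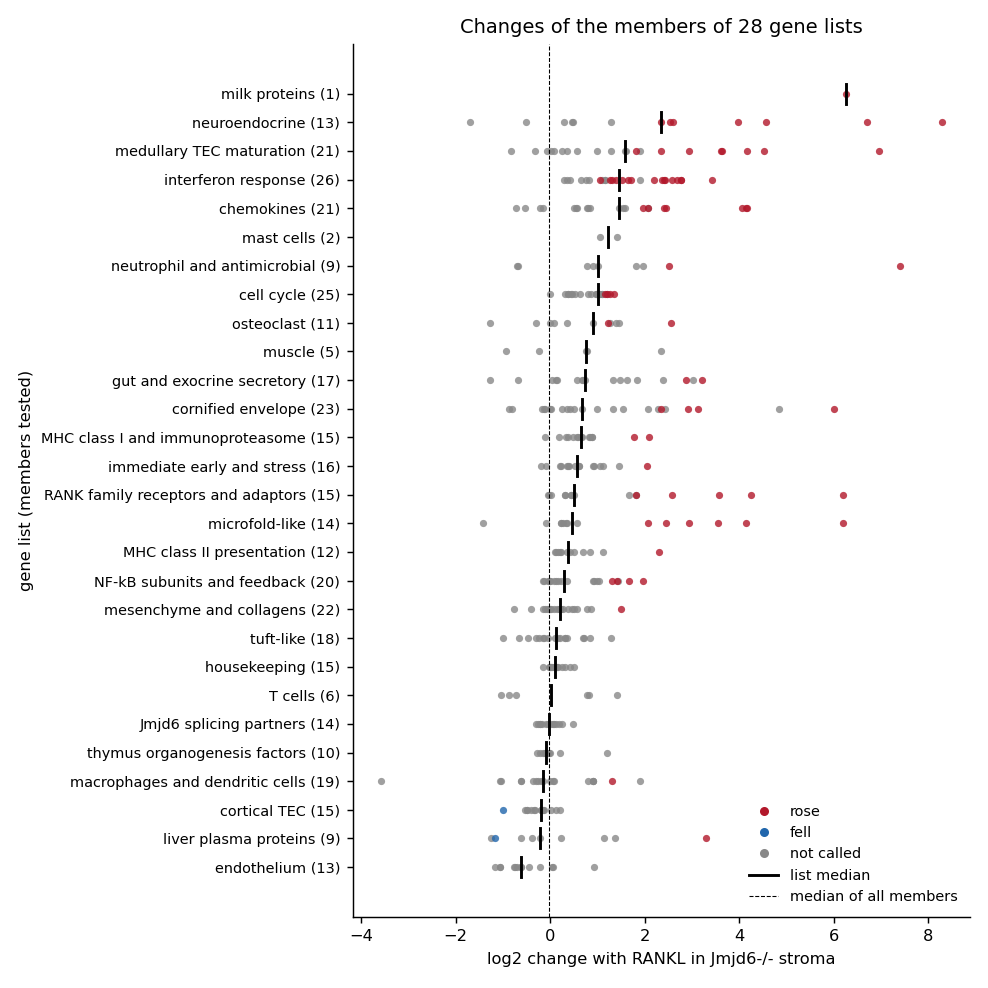
Log2 change with RANKL in Jmjd6-/- stroma (x axis) of each tested member of 28 gene lists (y axis, number tested in brackets), red where the gene rose, blue where it fell and grey where it was not called. Thick bars are list medians and the dashed line is the median of all members, -0.02. Neuroendocrine, mTEC maturation, interferon and chemokine lists lie to the right, and the endothelium list lies furthest to the left at -0.62.

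Part of the risen genes lay next to each other. A neighbour was the next tested row on either side, if within 100 kb. Of the 541 risen rows, 117 (21.6%) had a risen neighbour, against 670 of 14383 other rows (4.66%). Runs of 3 or more adjacent risen rows numbered 11, and the genes named from them below were chosen after their values were seen, apart from list members. On chromosome 10 (mm10, 78030022-78079525) the run was Dnmt3l, Aire and Icosl. The first 2 carry the same locus span in the table, so reads may be divided between them, and Dnmt3l was at 0.143, 1.79 and 1.19 FPKM. On chromosome 3 (90514435-90606045) a run of 6 S100a genes rose. S100a4 was at 5.95, 60.2 and 65.7 FPKM and S100a14 at 52.7, 215 and 198 FPKM.

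On chromosome 4 (111972927-112433985) Skint7, Skint1, Skint4, Skint3 and Skint9 rose together. Skint1, which selects a subset of γδ T cells in the thymus, was at 0.670, 25.1 and 24.025 FPKM, a log2 change of 5.00 ± 0.20 (adjusted p = 0.00143). Skint7 was at 7.04, 46.5 and 36.8 FPKM. Runs of 3 to 5 rows also held Gbp, Oas1 and Tgtp genes and class Ib genes H2-Q5, H2-Q8, H2-Q7 and H2-Q10. Most of these runs are families of similar sequence, whose reads the counting may divide between copies. Among falls, 4 of 45 rows (8.89%) had a fallen neighbour, against 0.444% of other rows. They were the pairs Cyp2g1 with Cyp2a5 and Ctla2a with Ctla2b, both of related genes.

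Falls were fewer and smaller, and they began from higher levels. Of the 45 fallen rows, 38 were at 1 FPKM or more without RANKL, and 16 fell more than 4-fold in both libraries. Atp6v1b1, a subunit of the proton pump, was at 3.42 FPKM without RANKL and at 0.412 and 0.431 FPKM with it, a log2 change of -2.75 ± 0.29 (adjusted p = 0.0115). The cytochrome P450 genes of a cluster on chromosome 7 fell together. Cyp2g1 was at 28.8, 5.36 and 4.44 FPKM, Cyp2a5 at 40.01, 7.41 and 8.25 FPKM and Cyp2f2 at 24.7, 4.40 and 6.75 FPKM. Each RANKL value was well below the unstimulated one.

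Sepp1, the selenium transport protein, was at 166, 40.8 and 37.5 FPKM, a log2 change of -2.08 ± 0.23 (adjusted p = 0.0131). Slc40a1, the iron exporter ferroportin, was at 47.1, 18.4 and 16.8 FPKM. Barx2, a homeobox gene, was at 2.85, 0.489 and 0.457 FPKM, and Asb2, a ubiquitin ligase subunit, was at 4.12, 0.635 and 0.633 FPKM. Among secreted factors Egf was at 3.84, 1.38 and 1.36 FPKM and the vascular factor Angpt2 at 3.75, 1.45 and 1.23 FPKM. Enpep and Amy1 were the fallen genes that belonged to any of the 28 lists.

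**Figure D4:**
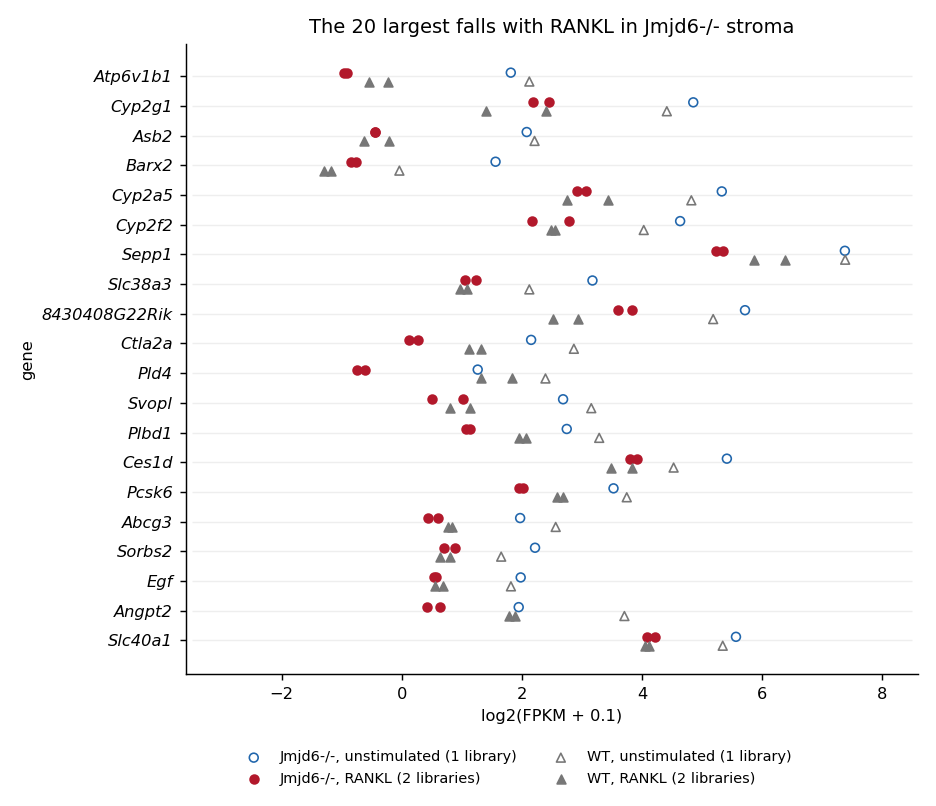
The 20 largest falls among called rows with a mean of at least 1 FPKM, drawn as for the rises. The filled red circles lie to the left of the open blue circle in all 20 rows, and the filled grey triangles lie to the left of the open triangle in all 20.

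Of 15 tested cortical epithelial genes 1 fell, and 12 lay below the unstimulated value in both RANKL libraries, as 45.2% of all members did. The list's median was -0.19 in Jmjd6-/- and -0.55 in WT stroma. Enpep, the aminopeptidase known as Ly51 that marks cortical cells, was at 147, 73.3 and 73.4 FPKM, a log2 change of -1.005 ± 0.12 (adjusted p = 0.0152). The thymic peptidase Prss16 was at 3785, 2671 and 2713 FPKM (adjusted p = 0.409) and the thymoproteasome subunit Psmb11 at 294, 254 and 266 FPKM. Foxn1, the master factor of thymic epithelium, was at 94.0, 117 and 101 FPKM. None of 10 organogenesis factors passed. Jmjd6 and 13 other genes of its splicing partners also gave no call, with changes between -0.30 and 0.48, and none of 15 housekeeping genes passed.

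Markers of other cells were read for the whole of each list, beside 3.63% of all members that rose and 0.302% that fell. Of 22 mesenchyme and collagen genes 1 rose, the proteoglycan gene Dcn at 48.6, 144 and 129.8 FPKM, and the list summed to 753 FPKM without and 916 and 857 FPKM with RANKL. None of 13 endothelial genes passed, and their sum was 17.4 FPKM without and 10.7 and 11.0 FPKM with RANKL. Of 19 macrophage and dendritic cell genes 1 rose, the mannose receptor Mrc1 at 4.504, 11.9 and 10.8 FPKM, and the sum was 762 FPKM without and 678 and 730.4 FPKM with RANKL. Timd4, a receptor of resident macrophages, was at 8.82, 0.913 and 0.450 FPKM (adjusted p = 0.0687), chosen after its values were seen. Ptprc, the leukocyte antigen CD45, was at 6.74, 2.89 and 3.56 FPKM.

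Of 11 osteoclast genes 2 rose, Atp6v0d2 at 2.34, 13.2 and 15.2 FPKM and Mmp9 at 10.3, 23.7 and 24.7 FPKM. Among all members, 3.63% rose. RANKL drives osteoclasts from macrophages, and the osteoclast phosphatase Acp5 was at 9.04, 9.16 and 14.6 FPKM. Of 9 neutrophil and antimicrobial genes S100a8 and Mmp8 rose, while Elane, below the minimum, was at 0 in all 3 libraries. The 2 tested mast cell genes and the 6 tested T cell genes gave no call. Of 16 immediate early and stress genes Gadd45b rose, at 5.56, 24.9 and 22.1 FPKM. The part of residual haematopoietic cells in the rises was not tested.

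The rows called in Jmjd6-/- stroma also moved in WT stroma, whose libraries the calls did not compare. Of the 541 rises, 482 (89.1%) were also at least 2-fold higher in both WT RANKL libraries, as 8.23% of all members were. Both WT RANKL libraries lay above the unstimulated one for 536 of the rises, as for 33.3% of all members, and below it for 1, Pspn, named after its values were seen. Their median change was 2.49 in WT and 2.47 in Jmjd6-/- stroma. Of the 45 falls, 30 (66.7%) were at least 2-fold lower in both WT libraries, as 0.878% of all members were, and the WT median was -1.25. Both WT libraries lay below the unstimulated one for 42, as for 36.9% of all members. The comparisons share no library but share the FPKM processing, and the WT libraries entered the estimate of the spread.

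**Figure D5:**
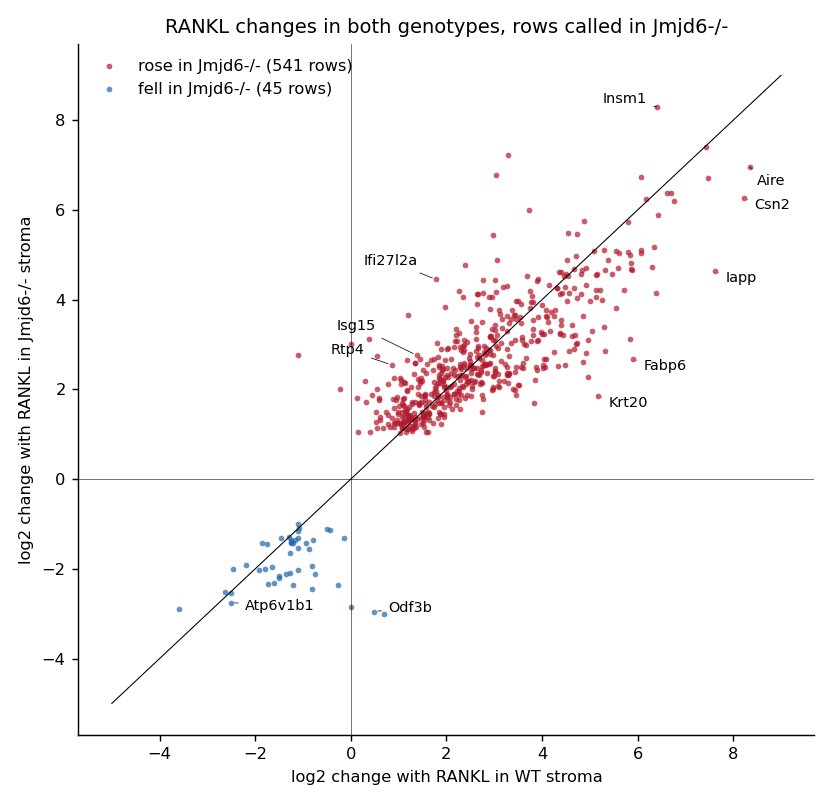
Log2 change with RANKL in WT stroma (x axis) against that in Jmjd6-/- stroma (y axis) for the 541 rows that rose (red) and the 45 that fell (blue) in Jmjd6-/- stroma, with the diagonal marking equal changes. Nearly all points keep their sign in WT. Csn2, Iapp, Fabp6 and Krt20 lie below the diagonal, and Ifi27l2a, Rtp4 and Isg15 lie above it.

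The difference between the genotypes' responses was tested for each member as an interaction. No member passed at an adjusted p under 0.05 (limma; the smallest adjusted p was 0.845). At an unadjusted p under 0.05 the log2 change was higher in Jmjd6-/- than in WT stroma for 112 members (0.75%) and lower for 419 (2.81%). Higher and lower refer to the signed change, so a gene that fell further in Jmjd6-/- stroma counts as lower. Other processing gave from 0 to 87 higher and from 0 to 79 lower changes after adjustment. Both upper values came from the fit that kept rows at 0 everywhere, and the fit with the replicate number as a block gave 13 and 29. Some rows with a low unadjusted p are given as values, chosen after they were seen. Gng13 and Csn2, whose values stand above, also had a low unadjusted p, at 0.000190 and 0.000359 (limma). Iapp, amylin, was at 0.241, 8.67 and 8.07 FPKM in Jmjd6-/- and at 0, 18.5 and 20.4 FPKM in WT stroma (unadjusted p = 0.000155). Fabp6, an ileal bile acid carrier, was at 0.316, 2.77 and 2.34 FPKM against 0.163, 15.9 and 15.3 FPKM. Rtp4, an interferon-induced chaperone, was at 5.98, 37.8 and 33.2 FPKM against 48.8, 87.2 and 89.6 FPKM. For Iapp and Fabp6 both RANKL values were lower in Jmjd6-/- than in WT stroma, in rows picked by a p that used these values. For Rtp4 the unstimulated levels differed more than the RANKL levels did.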

How the data were processed

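Poly-A RNA of 6 FTOC libraries was sequenced. Per the labels and methods, the authors aligned reads to mm10 with TopHat2 2.0.10 and computed the deposited FPKM values per gene with Cufflinks 2.1.1, which divides reads among overlapping genes and copies. Strand-specific counting is not given with certainty in the sources used here, so antisense partners cannot be told apart. Members were compared as log2(FPKM + 0.1), which understates changes of low genes, with limma 3.58.1 in R 4.3.3 (trended empirical Bayes, Benjamini-Hochberg adjustment over 14924 rows). The means of 4 conditions were fitted over all 6 libraries, which left 2 residual degrees of freedom. The lone unstimulated library was assumed to vary like the RANKL pairs. A two-sided exact permutation test of 2 against 1 libraries cannot go below p = 0.333. Depth was estimated from 7772 single-transcript rows, and limits at 0 use 3 fragments and cover counting error only. Genes were named by rule: the 20 largest rises and falls among called rows averaging 1 FPKM or more, the 4 most abundant and the 3 most changed called members of each of 28 lists, the 10 highest rows, and Jmjd6, Aire, Cd80, Cd40 and Tnfrsf11a. Genes outside it are marked as chosen after their values were seen or stand as list members. The members and lists were chosen with earlier results of these data known. Of 493 list entries 489 matched a row, and the promoter windows are RefSeq's. The test was checked on simulated data that gave all 6 libraries the same spread. That check says nothing of the true spread of the lone unstimulated library. Alternatives varied the constant, filter, scaling, variance model and libraries.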

Additional observations from a re-analysis of the deposited data

Results flagged for a closer look

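Rows on chromosomes X and Y were left out of the members. Fitted with the members, 20 of 537 tested X and Y rows rose with RANKL in Jmjd6-/- stroma and 2 fell. Among all members, 3.63% rose and 0.302% fell. The rises included the Y genes Eif2s3y, Ddx3y, Uty and Kdm5d, of which Eif2s3y was at 0.0651 FPKM without RANKL and at 36.3 and 7.71 FPKM with it. In WT stroma Eif2s3y was at 31.6 FPKM without RANKL and at 19.1 and 21.7 FPKM with it. The sex of the lobes and RANKL cannot be told apart in the Jmjd6-/- comparison. On X, Il2rg, the common cytokine receptor chain, was at 1.83 FPKM without RANKL and at 26.6 and 23.1 FPKM with it, and in WT stroma at 3.56, 39.6 and 33.8 FPKM. The moesin gene Msn was at 28.4, 86.7 and 73.7 FPKM.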

How the results depend on the processing

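The counts of calls rest on the estimate of the spread. Single genes were followed only where they were named by rule, which leaves out Fezf2, Spib and Krt14, for example. No called gene among those named by rule changed direction under any alternative run, while 21 of 97 without a call did. Against 541 rises and 45 falls, leaving out 1 library in turn gave 186 to 916 rises and 2 to 158 falls. The 3 Jmjd6-/- libraries alone gave 922 rises and 157 falls. With 1 added to FPKM the rises numbered 336. Without a filter on low rows 17 rose and 22 fell, and the signed change passed as higher in Jmjd6-/- than in WT for 87 and lower for 79. This fit holds rows at 0 throughout, and leaving those out, an alternative chosen after seeing the data, gave 169 rises and 10 falls. Without a variance trend 72 fell. Taking out the trend with GC content and length, also chosen after seeing the data, gave 126 falls and 1 higher change in Jmjd6-/-. The 2-fold rule without a p-value gave 1076 rises and 222 falls. Fitting the replicate number as a block (replicate block) gave 825 rises and 121 falls, with 13 higher and 29 lower changes in Jmjd6-/-. The numbers do not pair the libraries: the replicate differences of the genotypes correlated at -0.057. Leaving out 1 library gave 0 or 1 higher and 0 lower changes in Jmjd6-/-. All 541 rises were among the 922, 825, 915 and 916. Of 79 called genes among those named by rule, 73 lost the call in at least 1 alternative. These were 72 without a filter, 49 without a filter and without rows at 0, 42 without Jmjd6-/- RANKL replicate 1 and 32 without replicate 2. The 6 that kept it were Insm1, Aire, Nkx2-6, Cdx1, Csn2 and Nsg2. The causes were not tested. Depth limits rows near 3 fragments, among them 140 of the 525 rises with a known limit.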

Other observations

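Enzymes of sterol synthesis were listed after their values were seen, so that no test of the group was made. Of 19 such genes 16 were tested, and 10 of these passed as risen in Jmjd6-/- stroma, where 3.63% of all members rose. None fell, and all 16 lay above the unstimulated value in both RANKL libraries, as 41.1% of all members did. Their median change was 1.30 on the log2 scale in Jmjd6-/- and 1.44 in WT stroma, where 12 were at least 2-fold higher in both RANKL libraries. Idi1, the isomerase of the isoprenoid building blocks, was at 12.4 FPKM without RANKL and at 72.8 and 62.4 FPKM with it. Fdps, farnesyl diphosphate synthase, was at 26.0, 93.6 and 87.4 FPKM. Hmgcs1, an early synthase of the pathway, was at 39.4, 113 and 105 FPKM. The squalene epoxidase Sqle was at 86.4, 142 and 129 FPKM and did not pass (limma, adjusted p = 0.144).

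The immune ligand gene Cd70, the receptor gene Il2ra and the enzyme gene Ptgs2, the inducible cyclooxygenase, were also chosen after their values were seen. Cd70 was at 0, 2.47 and 3.71 FPKM, at least 11.0-fold higher with RANKL. Il2ra, the interleukin-2 receptor α chain, was at 0.302, 10.3 and 9.21 FPKM. Ptgs2 was at 0.609, 20.3 and 15.7 FPKM.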
